A study of Mus musculus with 3 samples.

Results

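The promoter sites described here are the 1961 intervals of the deposited list of in vivo Nuclear Factor I (NFI) sites whose centre lay between 0 and 1000 bp upstream of an annotated transcription start site (TSS) of a protein-coding gene on chromosomes 1 to 19 of mm9. They made up 5.08% of the 38625 listed sites on these chromosomes, out of 39807 in all. Each listed site is an interval of 16 bp. The list was called by the authors on NFI ChIP-Seq tags of wild-type mouse embryonic fibroblasts, and position relative to the TSS was the only further criterion. The tags of the NFI-C knock-out ChIP and of the input took no part in the choice. Tags were counted in 3 libraries. The wild-type ChIP and the NFI-C knock-out ChIP were made from primary fibroblasts of C57BL/6 embryos of 14.5 days at passages 6 to 7, with an antibody that recognises the NFI group of proteins and not NFI-C alone. The input was non-precipitated genomic DNA of wild-type cells. The knock-out was made by insertional mutagenesis, the antibody can still bind the remaining NFI proteins, and no treatment was applied. The title of the knock-out sample was followed, although its description line names wild-type cells.

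NFI proteins are transcription factors encoded in mammals by Nfia, Nfib, Nfic and Nfix. They bind DNA as dimers to a palindrome made of a pair of inverted TTGGC arms separated by a short spacer, and they bind a single arm more weakly. In fibroblasts, NFI proteins have been linked to the regulation of promoters of matrix genes such as collagens. Promoters themselves often lie in CpG-rich, open chromatin marked by trimethylation of histone H3 at lysine 4 (H3K4me3), and trimethylation at lysine 27 (H3K27me3) is the mark laid down by Polycomb complexes.

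With 1 library per condition, no test across samples was possible, and the values describe these libraries. With at most 1 tag kept per position and strand, the wild-type ChIP held 3350071 tags, the knock-out ChIP 3132004 and the input 4100449. Spread evenly, this would give 0.393, 0.367 and 0.481 tags per 300 bp, in the same order. A level is the observed count divided by this genome average. Intervals in parentheses are 95% intervals and cover counting error only. Over Nfic, the gene targeted in the knock-out (ENSMUSG00000055053.10, on chromosome 10 from 80858931 to 80893750), the libraries held 50, 66 and 151 tags in the same order, and no promoter site was found. Such tags cannot test the label, because an inserted cassette leaves the rest of the gene in place. Expression data were not used here, so the cell type was not checked by its markers.

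The sequence that carries the NFI consensus at these sites is shown first. The palindrome was searched as TTGGCA, 3 free bases and TGCCAA, which reads the same on both strands, and 0 of 1961 promoter sites contained it without a mismatch in their 300 bp, against 23 of the 36664 other sites. In 10 promoter sites it occurred with 1 mismatch at the 12 fixed positions. These matches are given below on the plus strand of mm9, with the base that departs from the consensus in capitals.
Oasl1, chr5:115373140-115373154: ttggcCccatgccaa
Ift46, chr9:44581619-44581633: ttggcacccAgccaa
Pipox, chr11:77707741-77707755: ttggcaggatgccCa
1110034G24Rik, chr2:132515381-132515395: ttggcacagtgccCa
Npm1, chr11:33054614-33054628: ttggcatgctTccaa
Gapvd1, chr2:34584656-34584670: ttggcatgctgGcaa
Mapkbp1, chr2:119797735-119797749: ttggcagcatCccaa
Crlf3, chr11:79895011-79895025: ttggcagaaGgccaa
Arid4a, chr12:72149323-72149337: ttggcaggttgccaG
Zfp503, chr14:22809622-22809636: ttggcagaatgGcaa

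The full 300 bp in which tags were counted are shown for 6 promoter sites, read from the NCBI build 37 (mm9) sequence. Capitals mark palindromes with at most 2 mismatches and single arms in the longer form, TTGGCA or TGCCAA. Shorter arms, TTGGC or GCCAA, are left in lower case unless they are part of these. Angptl4 and Cir1 are shown for their knock-out tags, Oasl1 for its close palindrome and Pik3r3 for its wild-type tags. The site of Znrd1 and Znrd1as is shown as a divergent promoter and that of Fahd1 for its input tags. The site of Gm4861, which ranked between Angptl4 and Cir1 with 12 knock-out tags, is not shown and held no such palindrome.
Angptl4, chr17:33916303-33916602, plus strand: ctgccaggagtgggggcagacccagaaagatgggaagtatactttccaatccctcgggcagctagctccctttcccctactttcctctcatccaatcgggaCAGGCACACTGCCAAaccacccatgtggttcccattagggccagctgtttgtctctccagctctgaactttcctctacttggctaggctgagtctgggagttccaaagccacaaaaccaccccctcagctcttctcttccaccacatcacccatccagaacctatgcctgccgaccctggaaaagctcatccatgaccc
Cir1, chr2:73151255-73151554, plus strand: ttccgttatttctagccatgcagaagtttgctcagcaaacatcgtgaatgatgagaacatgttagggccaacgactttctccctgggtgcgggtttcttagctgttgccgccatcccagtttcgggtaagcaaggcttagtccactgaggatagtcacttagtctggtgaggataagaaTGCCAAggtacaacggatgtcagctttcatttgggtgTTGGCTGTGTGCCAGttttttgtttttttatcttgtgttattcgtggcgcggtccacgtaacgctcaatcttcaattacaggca
Oasl1, chr5:115373047-115373346, plus strand: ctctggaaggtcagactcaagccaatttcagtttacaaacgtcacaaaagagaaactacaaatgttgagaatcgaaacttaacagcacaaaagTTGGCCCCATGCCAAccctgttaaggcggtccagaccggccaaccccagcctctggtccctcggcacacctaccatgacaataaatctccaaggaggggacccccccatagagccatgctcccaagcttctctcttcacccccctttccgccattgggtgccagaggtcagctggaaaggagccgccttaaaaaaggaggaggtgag
Pik3r3, chr4:115893940-115894239, plus strand: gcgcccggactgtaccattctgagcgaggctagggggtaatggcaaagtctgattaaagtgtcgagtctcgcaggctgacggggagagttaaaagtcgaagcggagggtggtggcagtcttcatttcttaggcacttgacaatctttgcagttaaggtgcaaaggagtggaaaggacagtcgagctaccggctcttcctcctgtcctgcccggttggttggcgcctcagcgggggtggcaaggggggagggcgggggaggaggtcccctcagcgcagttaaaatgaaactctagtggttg
Znrd1 and Znrd1as, chr17:37095164-37095463, plus strand: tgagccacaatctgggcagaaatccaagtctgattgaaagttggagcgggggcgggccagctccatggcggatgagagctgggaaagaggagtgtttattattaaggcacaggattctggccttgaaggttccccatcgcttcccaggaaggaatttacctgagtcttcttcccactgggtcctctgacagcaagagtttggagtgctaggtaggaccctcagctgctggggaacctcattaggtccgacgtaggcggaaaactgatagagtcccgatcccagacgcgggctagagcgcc
Fahd1, chr17:24987585-24987884, plus strand: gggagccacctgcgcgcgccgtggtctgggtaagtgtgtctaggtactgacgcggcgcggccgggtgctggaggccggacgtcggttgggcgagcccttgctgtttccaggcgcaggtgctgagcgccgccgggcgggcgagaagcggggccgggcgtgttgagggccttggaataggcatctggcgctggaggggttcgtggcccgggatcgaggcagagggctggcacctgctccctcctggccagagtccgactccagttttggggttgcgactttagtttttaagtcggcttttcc
The sites of Pik3r3, Znrd1 and Znrd1as, and Fahd1 contained neither a palindrome with at most 2 mismatches nor the longer arm TTGGCA or TGCCAA. This says only that these letters are not in these windows, and the window of Pik3r3 does contain the shorter arm TTGGC.

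By annotation, 942 promoter sites lay outside genes, 661 in introns and 358 in exons of a protein-coding gene. A total of 1236 sites lay upstream of the outermost TSS of a gene, and 725 lay upstream of an inner, alternative TSS alone. Most of them, 1849, lay before 1 gene, 109 lay before 2 genes and 3 before more. They fell before 1961 of 21418 protein-coding genes, a number that equals that of the sites by coincidence, and 105 genes had 2 or more sites. The percentage of all protein-coding genes with a promoter site was 9.16. It rose with the number of TSS annotated for a gene, from 4.44% (4.03 to 4.87) of the genes with 1 TSS to 14.3% (13.3 to 15.4) of those with 4 to 7 and 21.8% (20.0 to 23.7) of those with 8 or more.

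In the wild-type ChIP, on which the sites were called, each promoter site held between 1 and 21 tags in 300 bp, with a median of 3. The summed 6665 tags were 8.65 times the genome average (8.45 to 8.86), a description that the choice of the sites raises. In the knock-out ChIP the sites held 0 to 17 tags, with a median of 1 and a mean of 3.19 times the average (3.06 to 3.32). In the input they held 0 to 29 tags, also with a median of 1, and a mean of 5.68 times the average (5.53 to 5.84). The wild-type counts were thus narrow and low, and the input counts were spread widely. At least 5 wild-type tags were present at 298 promoter sites, or 15.2%, beside 11.4% of all listed sites. With 300 bp on either side and a tag shift of 75 bp, settings chosen after the data were seen, 99.2% of the promoter sites held 5 tags or more.

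**Figure D1:**
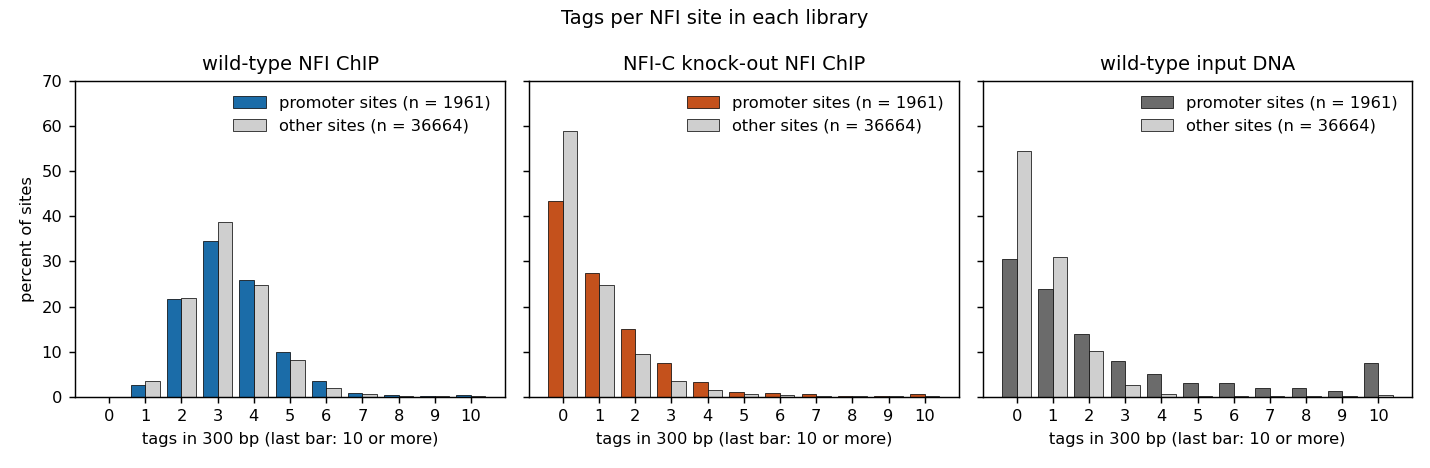
Percent of sites (y axis) by the number of tags in 300 bp (x axis) in the wild-type NFI ChIP, the NFI-C knock-out NFI ChIP and the wild-type input DNA, with 1961 promoter sites as dark bars and 36664 other sites as light grey bars. Of the promoter sites, 43.5% had no knock-out tag and 30.5% no input tag, and the input alone has a long right tail.

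Over all GC contents together, both libraries that took no part in calling the sites were fuller at promoter sites than at the others. The knock-out ChIP had at least 3 tags at 274 promoter sites, 14.0% (12.5 to 15.6), beside 7.12% of all listed sites. It had no tag at 853 of them, 43.5% (41.3 to 45.7), beside 58.2%. The input had no tag at 599 promoter sites, 30.5% (28.5 to 32.6), beside 53.4%. It had at least 5 tags at 366 of them, 18.7% (17.0 to 20.5), beside 2.06%.

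Scaled for library size, the knock-out ChIP reached 0.561 of the input at promoter sites (0.534 to 0.589). At the 36664 other sites on the same chromosomes this ratio was 1.22 (1.20 to 1.24). Promoter sites over other sites, it was thus 0.458 (0.435 to 0.482), and with every unique tag counted, copies included, 0.833 (0.805 to 0.863). The difference came with a difference in both libraries. The knock-out ChIP rose from 2.06 times the genome average at other sites to 3.19 at promoter sites, and the input rose more, from 1.68 to 5.68 times. A second comparison was made with 117387 windows of 300 bp within the same upstream kilobases that held no listed site. The level in these promoter windows was 1.44 for the knock-out ChIP and 3.12 for the input, hence a ratio of 0.464 (0.459 to 0.468). Against them, the ratio of knock-out ChIP over input was 1.21 times higher at promoter sites (1.15 to 1.27). It was also 1.21 times (1.14 to 1.29) when sites and windows with 10 or more knock-out and input tags together were left out, although the ratio itself at the promoter sites then stood at 0.778 (0.732 to 0.826) and the input level at 3.42. This limit acts on the same counts that form the ratio. It left 1749 of the 1961 sites and 112773 of the 117387 windows.

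The base composition of the sites moved with these values. The 300 bp around promoter sites contained on average 51.3% G and C (SD 9.39, n = 1961 sites), against 42.1% at other sites and 48.4% in promoter windows without a site. Their median ratio of observed over expected CpG was 0.447, against 0.182 and 0.253. Among the 235 promoter sites under 40% G and C, knock-out over input was 1.53 (1.22 to 1.92). At the 616 sites of 40 to 50% it was 1.20 times (1.08 to 1.34), at the 731 sites of 50 to 60% 0.779 times (0.717 to 0.846), and at the 379 sites of 60% or more 0.259 times (0.237 to 0.283). The input at the last group stood at 16.5 times the genome average, and the knock-out ChIP at 4.28 times.

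Compared within the same range of GC content, the lower ratio at promoter sites than at other sites did not hold throughout. Promoter over other sites, the ratio of knock-out over input was 1.16 (0.930 to 1.45) under 40% G and C, 0.800 (0.715 to 0.895) at 40 to 50%, 0.577 (0.527 to 0.631) at 50 to 60% and 1.14 (1.02 to 1.28) at 60% or more. The last value rests on 1 other site with 543 input tags, and without it the ratio was 1.06 (0.945 to 1.20), an alternative chosen after the data were seen. In the lowest range a difference was thus not detectable. In the highest, the interval lay just above 1 with all sites and included 1 without that site. Against promoter windows without a site, the ratio of knock-out over input lay above 1 in all 4 ranges. It was 1.32 (1.05 to 1.65), 1.22 (1.09 to 1.36), 1.27 (1.17 to 1.38) and 1.93 (1.77 to 2.12). The level of the knock-out ChIP itself, without division, was 1.50, 2.02, 2.24 and 2.37 times that of the promoter windows in the same order, and the level of the input was 1.14, 1.65, 1.76 and 1.23 times. Over other sites, the knock-out level at promoter sites was 1.22, 1.25, 1.24 and 0.979 times and the input level 1.05, 1.56, 2.15 and 0.856 times. Without the other site of 543 input tags, the levels at 60% G and C or more were 1.03 and 0.971 times, while the median input count there was 7 at promoter and 4 at other sites.

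**Figure D2:**
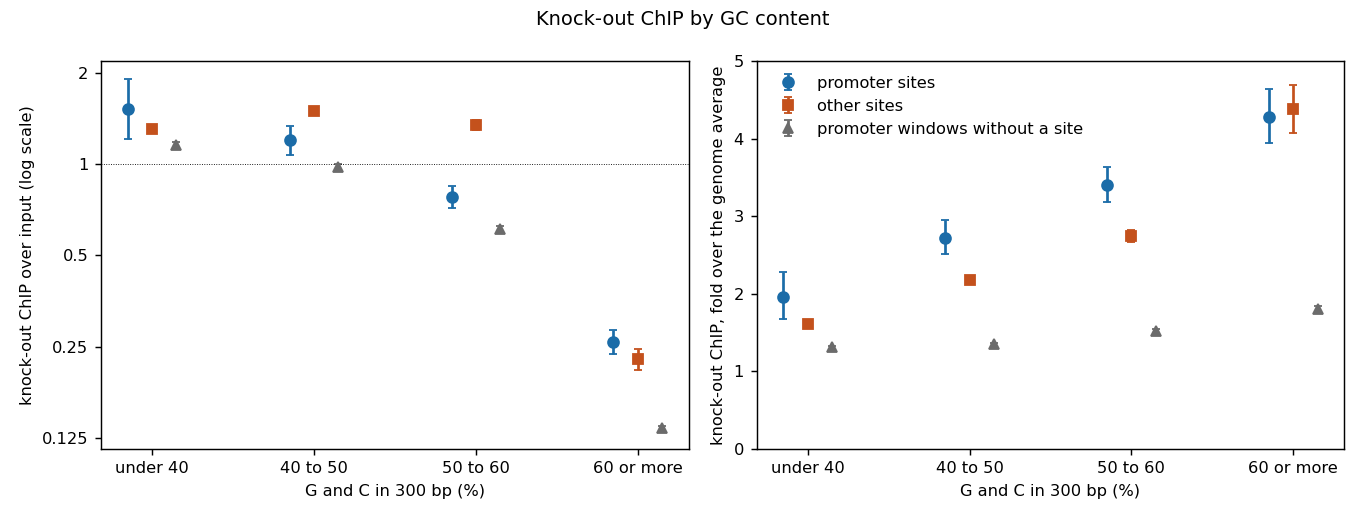
Knock-out ChIP over input (left, log scale) and knock-out ChIP as the fold over the genome average (right) by the G and C content of 300 bp, for promoter sites, other sites and promoter windows without a site, with 95% intervals of counting error. The ratio over input falls from 1.53 to 0.259 at promoter sites as GC rises, while the knock-out level rises from 1.96 to 4.28 and stays above that of the windows.

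Around the promoter sites, oriented with the nearest TSS to the right, the libraries had different shapes. The knock-out ChIP peaked at the site itself, with 3.26 times the genome average (3.10 to 3.42) within 100 bp of the centre, 1.64 times (1.59 to 1.69) from 500 to 1500 bp upstream and 1.83 times (1.78 to 1.88) from 500 to 1500 bp downstream. The input did not peak at the site. It rose across it towards the TSS and was highest 300 to 400 bp downstream, at 8.75 times (8.42 to 9.08), with 5.60 times (5.42 to 5.79) within 100 bp of the centre. At other sites the knock-out ChIP was 2.09 times the average (2.06 to 2.12) within 100 bp of the centre and 1.35 and 1.38 times in the flanks, and the input was 1.70 times at the centre and 1.42 and 1.45 times in the flanks. The wild-type ChIP, for which the shape follows from the calling, fell to 1.61 and 1.68 times in the flanks of promoter sites.

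**Figure D3:**
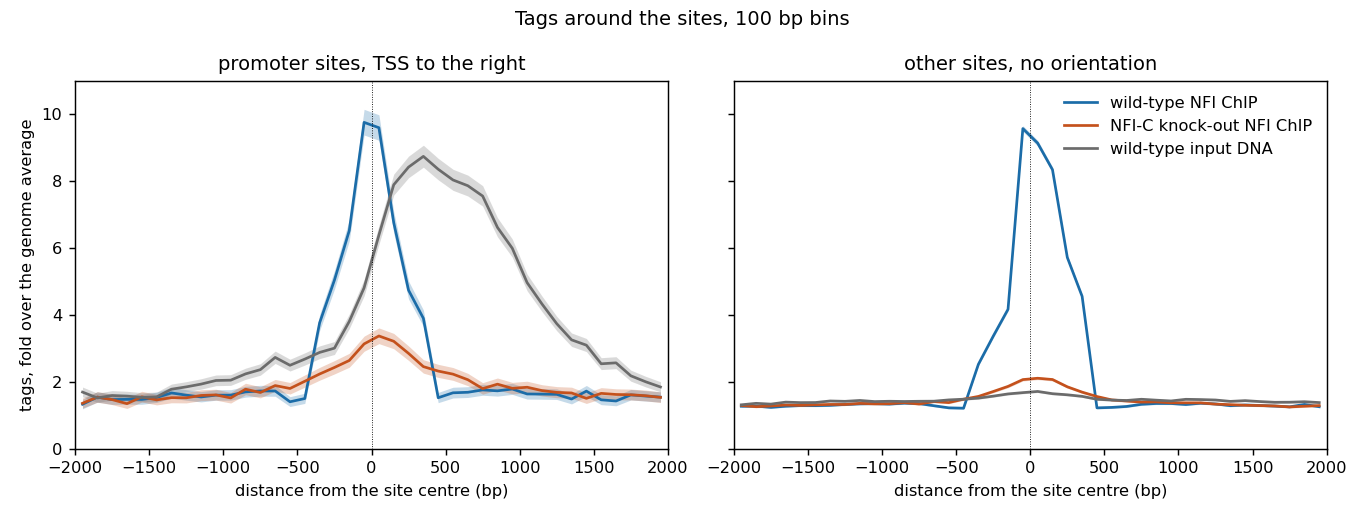
Tags as the fold over the genome average (y axis) in 100 bp bins by distance from the site centre (x axis, bp) at promoter sites, turned so that the TSS lies to the right, and at other sites in genome orientation, with 95% intervals of counting error shaded. The knock-out ChIP is highest in the bin next to the centre of promoter sites (3.37 times), and the input 300 to 400 bp towards the TSS (8.75 times).

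In ChIP-Seq, tags of a bound fragment lie on either side of the site and point at it. At promoter sites 65.0% of the wild-type tags pointed at the centre (63.9 to 66.2), by which the sites were in effect chosen. In the knock-out ChIP 54.1% of the 2294 tags did so (52.1 to 56.2), and in the input 48.9% of 5358 (47.6 to 50.3). In promoter windows without a site the shares were 49.4% for wild-type, 49.8% (49.4 to 50.2) for knock-out and 48.7% for input tags. The knock-out share at promoter sites thus lay above that of the input and of the windows beyond counting error, and beside 52.9% (52.3 to 53.5) at other sites.

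Promoter sites lay close to the TSS, at a median distance of 343 bp. Within 500 bp were 65.6% of them (63.4 to 67.7), against 53.6% of the bases of the same upstream kilobases. The wild-type and knock-out tags of these kilobases were spread more evenly than the sites, with 55.9% and 57.7% within 500 bp and medians of 439 and 421 bp. The input tags lay closest to the TSS, with 74.0% within 500 bp and a median of 236 bp. Sites were most frequent in the 100 bp next to the TSS, where 335 of them lay (17.1%), and fewest from 900 bp on, with 97 (4.95%).

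The level in both libraries not used for calling fell with distance. At the 629 promoter sites within 200 bp of the TSS, the knock-out ChIP had 3.87 times and the input 8.97 times the genome average, and their ratio was 0.431 (0.399 to 0.465). At the 228 sites from 800 bp on, the knock-out ChIP had 2.30 times and the input 2.16 times, with a ratio of 1.07 (0.877 to 1.29). Relative to the sites farther than 200 bp, the ratio within 200 bp was 0.621 (0.562 to 0.686), not matched for GC content. The wild-type level varied little, between 8.26 and 9.01 times over the distances, which the calling of the sites on these tags largely fixes. Just inside the limit, the 97 sites from 900 to 1000 bp had 306, 90 and 86 tags in the order wild-type, knock-out and input, and just outside it, the 100 sites beyond 1000 and up to 1100 bp had 343, 122 and 137.

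**Figure D4:**
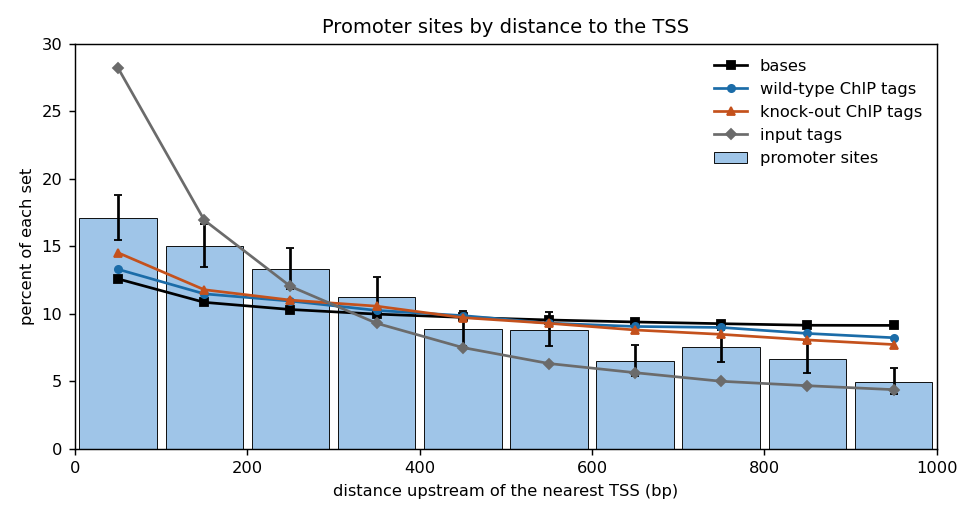
Percent of each set (y axis) by distance upstream of the nearest TSS (x axis, bp, 100 bp bins), with promoter sites as bars with 95% intervals and, as lines, the bases and the tags of each library in the same upstream kilobases. In the bin next to the TSS lie 17.1% of the sites, 12.6% of the bases and 28.2% of the input tags.

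A divergent promoter serves 2 genes that start on opposite strands and point away from each other. Between TSS of such genes, inner ones included, lay 99 promoter sites, or 5.05% (4.12 to 6.11), within 1 kb upstream of both. They belonged to 98 gene pairs and could lie inside a gene of the pair. Counted from outermost TSS alone, the share was 2.67% (1.84 to 3.73). Of the bases of the upstream kilobases 1.60% lay in such places, and so did 2.41% of the wild-type, 2.61% of the knock-out and 5.23% of the input tags counted there. The share of the sites counted from every TSS, 5.05%, was hence above that of the bases and of the ChIP tags and next to that of the input tags. For outermost TSS alone no share of bases or tags is given. The TSS of a pair were 38 to 1727 bp apart, with a median of 525 bp, and 98 of the 99 sites lay in an H3K4me3-rich region, beside 86.1% of all promoter sites. Of the 2529 genes with a divergent TSS within 2 kb, 431 had a promoter site, a share of 15.6 to 18.6%, against 1530 of the 18889 other genes, 8.10% (7.71 to 8.50). A site between 2 genes counts for both, which raises the first share, and its interval treats such genes as independent. The number of TSS per gene, with which the share rises, was not matched. At the divergent sites the knock-out ChIP had 4.02 times and the input 9.50 times the genome average. The ratio of knock-out over input was 0.738 of that at the remaining promoter sites (0.608 to 0.895), not matched for GC content. The median GC content of the divergent sites was 56.7%, beside 51.3% of all promoter sites.

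Where the input had fewer than 5 tags, the divergent site between Cep170 and Sdccag8, which both encode centrosomal proteins, led in wild-type tags. It held 3 knock-out and 4 input tags beside 9 wild-type tags. Its distance was 229 bp from the TSS of Cep170 and 364 bp from that of Sdccag8. Among the divergent sites named here, only this site and that of BC049715 and Wbp11 lay outside genes. The others lay in an exon or intron of a gene of their pair. The site between Znrd1, which encodes a subunit of RNA polymerase I, and Znrd1as had 6 tags in each ChIP and none in the input. It lay in an exon of Znrd1, 51 and 223 bp from TSS of these genes that are 274 bp apart. Between Rai12 and Ctdnep1, whose product is a phosphatase of the nuclear envelope, there were 6, 3 and 0 tags in the same order of libraries. The site of Zbtb8os and Rbbp4, a histone chaperone, had 6, 6 and 4 tags, and that of BC049715 and Wbp11, a splicing protein, had 6, 0 and 1. The other 5 named divergent sites, of Snrpd3 and 1110038D17Rik, Pus10 and Pex13, Tmc8 and Tmc6, 2210009G21Rik and Mkks, and Med20 and Bysl, each had 5 wild-type tags, 1 to 4 knock-out tags and 1 or 2 input tags.

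The deposited files give the regions rich in histone marks by their boundaries, and from these each promoter site was placed inside or outside. Inside an H3K4me3-rich region lay 1689 promoter sites, or 86.1% (84.5 to 87.6), beside 43.5% of all listed sites and 41.2% of the other sites. Inside an H3K27me3-rich region lay 1486, or 75.8% (73.8 to 77.7), beside 54.5% of all listed sites and 53.3% of the other sites. Promoter windows without a site were inside H3K4me3-rich regions in 55.3% and inside H3K27me3-rich regions in 59.7% of cases. The input tags of the upstream kilobases came closest to the sites, with 84.4% and 79.6%, whereas the knock-out tags there had 70.4% and 68.8%. The regions are broad. Those of H3K4me3 have a median length of 16547 bp and cover 19.3% of the autosomal sequence, and those of H3K27me3 have a median of 38813 bp and cover 39.7%. A promoter site inside an H3K4me3-rich region lay a median of 4753 bp from its nearest edge, and one inside an H3K27me3-rich region 7795 bp. An overlap therefore does not place either mark on the site.

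Regions rich in both marks held 69.3% of the promoter sites (67.2 to 71.3), H3K4me3 alone 16.8%, H3K27me3 alone 6.48% and neither 7.39%. At the 1359 sites inside regions rich in both marks the knock-out ChIP had 3.57 times and the input 6.72 times the genome average. At the 330 sites in H3K4me3-rich regions alone these values were 3.19 and 4.93. They were 1.31 and 1.47 at the 127 sites in H3K27me3-rich regions alone, and 1.18 and 1.31 at the 145 sites in neither. Promoter sites outside H3K4me3-rich regions thus had low counts in both libraries. Their ratio of knock-out over input was higher: inside such regions it was 0.612 of that outside (0.484 to 0.773). This comparison was not matched for GC content. H3K4me3-rich regions contained 92.0% of the sites upstream of an outermost TSS (90.3 to 93.4). They contained 76.1% of those upstream of an inner TSS alone (72.9 to 79.2). With a CpG ratio of at least 0.6 in 300 bp, 98.8% of the promoter sites and 92.8% of the windows without a site lay in such regions. Below 0.6 these shares were 79.2% (76.9 to 81.4) and 48.2% (47.9 to 48.5). Regions rich in H3K36me3, the mark of transcribed gene bodies, contained 67.7% of the promoter sites, and lamina-associated domains 10.8%, against 51.0% and 16.1% of the windows.

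The palindrome with at most 2 mismatches lay in 59 promoter sites, 3.01% (2.30 to 3.86), beside 3.04% of all listed sites and 1.10% (1.05 to 1.17) of promoter windows without a site. A single arm, TTGGCA or TGCCAA and thus also present in many of these palindromes, lay in 334 of the 1961 promoter sites, a share of 15.4 to 18.8%, against 18.8% of other sites and 14.0% of windows. The motif CCAAT, or ATTGG on the opposite strand, overlaps an arm where the bases TGCCAA are followed by T. It lay in 34.0% of promoter sites (31.9 to 36.1), 36.4% of other sites and 33.5% of windows. The order of promoter and other sites changed with GC content. By rising GC, CCAAT lay in 35.3%, 33.1%, 34.7% and 33.0% of promoter sites, against 39.7%, 36.3%, 29.5% and 23.7% of other sites. Promoter and other sites thus did not differ in the share with a palindrome beyond counting error.

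At the 59 promoter sites with the palindrome, the wild-type ChIP held 239, the knock-out ChIP 129 and the input 117 tags. The knock-out ChIP stood at 5.95 times the genome average (4.97 to 7.07), against 3.10 times (2.97 to 3.23) at the 1902 sites without it. The input stood at 4.12 times (3.41 to 4.94) and 5.73 times (5.58 to 5.89). The ratio of knock-out over input was 1.44 (1.12 to 1.87) with and 0.541 (0.514 to 0.569) without the palindrome, 2.67 times higher (2.07 to 3.44). Without sites of 10 or more knock-out and input tags it was 1.76 times higher (1.30 to 2.39). GC content, with which this ratio falls, was not matched in the comparisons of this paragraph. Of the 59 sites, 6 had 60% G and C or more, beside 19.3% of all promoter sites. At individual sites the counts remained small. More knock-out than input tags lay at 26 of the 59 and fewer at 24, from which nothing is read, as no share over all promoter sites is given. No knock-out tag lay at 19 of the 59, beside 43.5% of all promoter sites. Sites with a single arm also had a higher ratio than those without, 1.46 times (1.29 to 1.66). At the 1115 other sites with the palindrome, knock-out over input was 2.58 (2.38 to 2.81), and promoter over other sites with it the ratio was 0.559 (0.429 to 0.727).

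The 10 promoter sites with 1 mismatch held 2 to 6 wild-type, 0 to 3 knock-out and 0 to 2 input tags. That of Oasl1, an interferon-induced gene, lay 52 bp from the TSS and held 6 wild-type, 2 knock-out and 0 input tags. That of Ift46, a component of intraflagellar transport, lay 154 bp from an inner TSS with 6, 1 and 0 tags. That of Pipox, an enzyme of pipecolic acid oxidation, lay at 202 bp with 5, 2 and 0 tags, and that of Npm1, the nucleolar protein nucleophosmin, at 65 bp with 4, 2 and 1. Crlf3 had 3 tags in each ChIP and 1 in the input. In 1110034G24Rik, Gapvd1 and Zfp503 the knock-out ChIP had no tag. Mapkbp1 had 3, 1 and 1 tags and Arid4a 3, 1 and 2. The sites of Ift46, 1110034G24Rik, Npm1, Gapvd1 and Arid4a lay in introns of these genes, upstream of an inner TSS alone. The palindromes lay between 3 and 138 bp from the centre of the site.

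Of the promoter sites with under 5 input tags, that richest in the wild-type ChIP was found 133 bp upstream of Pik3r3, a regulatory subunit of phosphoinositide 3-kinase. There were 12 tags of wild-type, 5 of knock-out and 2 of input origin. The site 547 bp upstream of Lims1, an adaptor of integrin adhesion sites, held 10, 5 and 1 tags. The site 808 bp upstream of an inner TSS of Hjurp, the chaperone of the centromeric histone, held 9, 0 and 0 tags. Dhrs13 had 9, 2 and 3 tags. Eif3f, a subunit of a translation initiation factor, had 8, 0 and 0 tags at 288 bp, Mvd, an enzyme of the mevalonate pathway, had 8, 3 and 0 tags at 988 bp, and Igfbp4, which binds insulin-like growth factors, had 8, 2 and 0 tags at 149 bp. The site of 4931440P22Rik had 8, 2 and 2 tags. With 7 wild-type tags each, the sites of Cir1, Pgbd1, Rapgef3, Zfp945, Mef2d and Man1c1 followed, and they had 10, 2, 3, 4, 1 and 2 knock-out tags and 0 or 1 input tag. Further sites tied with them at 7 wild-type tags. All of these sites, apart from that of Man1c1, lay in an H3K4me3-rich region, as did 86.1% of all promoter sites. Only those of Cir1 and Zfp945 held the palindrome with at most 2 mismatches. Their rank rests on the wild-type counts and is a description. The sites of Igfbp4, Pgbd1, Rapgef3 and Man1c1, like that of Hjurp, lay within the gene and upstream of an inner TSS alone. Those of Mvd, 4931440P22Rik and Cir1 lay in introns of other genes, Gm20388, Tiparp and Scrn3.

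The sites were also ranked by their knock-out tags, a ranking that shares the site of Cir1 with the one above. Under the same limit on input tags, the site 365 bp upstream of a TSS of Angptl4, a secreted inhibitor of lipoprotein lipase, held 14 knock-out tags, against 5 wild-type and 2 input tags. The site 261 bp upstream of Gm4861 held 12 knock-out, 4 wild-type and 0 input tags, and that of Cir1, a transcriptional corepressor, held 10, 7 and 0 in this order. At Ogn, which encodes the matrix proteoglycan osteoglycin, 9 knock-out tags stood against 4 wild-type and 0 input tags. Ppm1h, a protein phosphatase, had 8, 4 and 0, and the divergent site of Atp6v1a and Naa50 had 8, 3 and 1. Sfswap, a splicing regulator, had 8 knock-out, 7 wild-type and 2 input tags. Prss23 had 8, 4 and 2, Crebl2 had 8, 3 and 3, and Dynlrb1, a dynein light chain, had 7, 6 and 1. Ranking by knock-out counts largely fixes their excess over the wild-type counts, so these values too are a description. Of the 10, those of Angptl4, Cir1, Ppm1h and Prss23 held the palindrome with at most 2 mismatches, which 3.01% of all promoter sites held, and those of Gm4861 and Ogn a single arm. The sites of Angptl4 and Ppm1h lay in introns of these genes, upstream of an inner TSS alone. Those of Cir1 and Ogn lay in introns of Scrn3 and Cenpp, and that of Atp6v1a and Naa50 in an intron of Atp6v1a.

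The 3 promoter sites with the most input tags were those of Trpm8, Fahd1 and 9130023H24Rik. At Trpm8 29 input tags stood beside 12 wild-type and 11 knock-out tags, at Fahd1 23 beside 3 and 1, and at 9130023H24Rik 23 beside 3 and 2. Their 300 bp contained between 63.0% and 69.0% G and C, above the mean of the promoter sites. That of Trpm8 also held a palindrome with 2 mismatches. The site of Trpm8 lay in an intron of Hjurp, that of Fahd1 in an exon of Hagh and that of 9130023H24Rik in an exon of Armc5.

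Sfi1, whose product acts at centrosomes, had the most promoter sites, 6, each before an inner TSS. They held 9 to 21 wild-type, 11 to 17 knock-out and 8 to 22 input tags, so that all libraries were high there alike. Hjurp, Cic and Safb2 had 3 sites each. These 4 genes had between 8 and 19 annotated TSS, and sites of 1 gene share its promoters and are not independent of each other.

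The genes were then grouped in 28 lists by function. The gene names of a list were matched by name or by pattern, and the share with a promoter site was set beside the 9.16% of all protein-coding genes. No test was run on the lists, which were written with earlier results of these data known. The share was highest, apart from the 4 NFI genes, for mitochondrial protein import (5 of 20 genes), the actin cytoskeleton (7 of 34) and the ribosomal proteins of mitochondria (15 of 75) and cytosol (16 of 81). For mitochondrial ribosomal proteins the interval was 11.6 to 30.8%. The share was 19.8% (11.7 to 30.1) for cytosolic ones, 18.8% (11.2 to 28.8) for the respiratory chain and ATP synthase and 19.5% (8.82 to 34.9) for collagens. It was lowest for olfactory receptors, 10 of 1106 genes or 0.904% (0.434 to 1.66), vomeronasal receptors, 3 of 319, and the PDGF ligands and receptors. The last had 0 of 7, which allows a share of up to 41.0%. The number of TSS per gene was not matched. Its median was 4 for cytosolic and 3 for mitochondrial ribosomal proteins, 2 for the respiratory chain and 1 for both receptor families. Genes with 4 to 7 TSS had a share of 14.3%, those with 2 or 3 had 8.42% and those with 1 had 4.44%. The interval of cytosolic ribosomal proteins thus held the share of genes with 4 to 7 TSS.

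**Figure D5:**
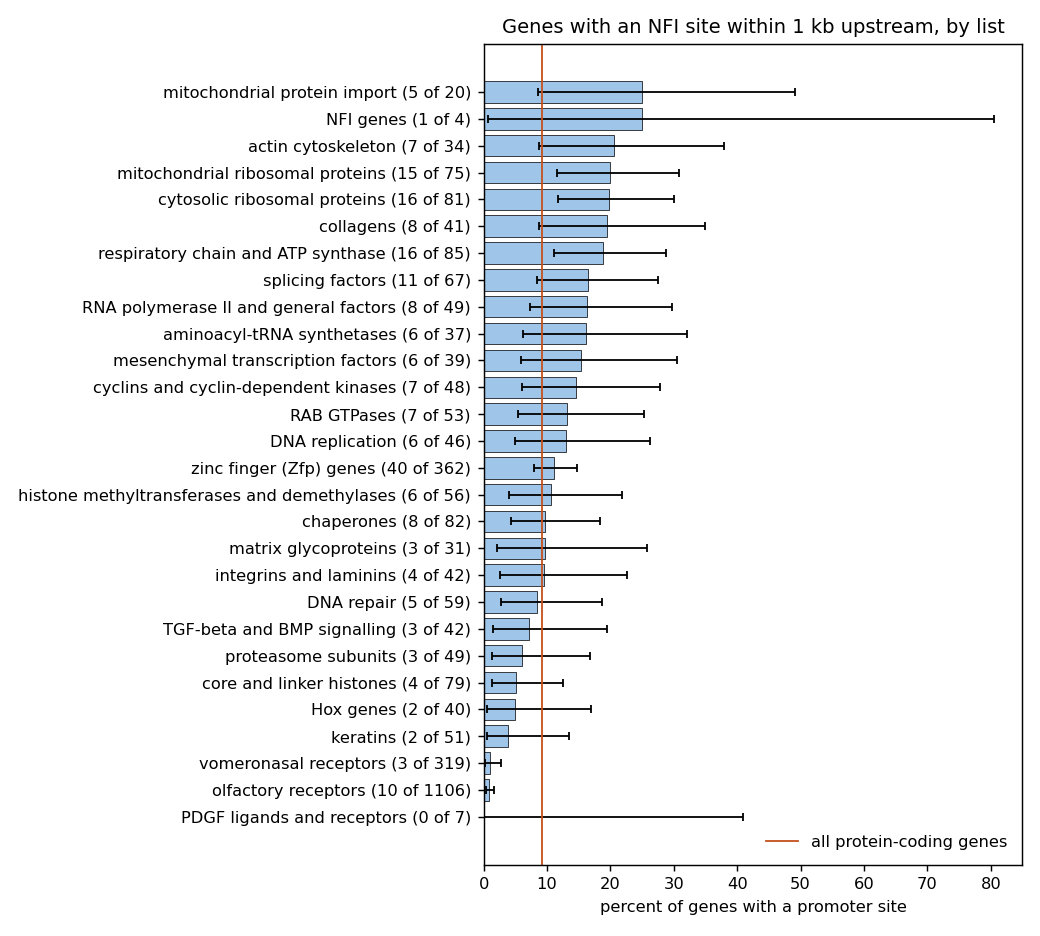
Percent of the genes of each list with an NFI site within 1 kb upstream (x axis), with 95% exact binomial intervals and the share of all protein-coding genes, 9.16%, as a line. The intervals of cytosolic and mitochondrial ribosomal proteins and of the respiratory chain lie above the line. Those of both receptor families lie below it, and all others cross it or hold it. The line is not matched for the number of TSS per gene.

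Counting only from the outermost TSS, 5.90% of all genes had a site, and the shares were 11.1% for cytosolic, with a lower bound of 5.21% that no longer lay above all genes, and 12 of 75 for mitochondrial ribosomal proteins, 14.1% (7.51 to 23.4) for the respiratory chain, 7.32% for collagens and 0.904% for olfactory receptors. The tags of the upstream kilobases differed between the lists. In the input they stood at 4.76 times the genome average for cytosolic ribosomal proteins, 4.49 times for mitochondrial ones, 1.95 times for collagens and 0.820 times for olfactory receptors, beside 3.16 times for all genes. The PDGF genes, without a site, had the most, 7.94 times. In the wild-type ChIP the same values were 2.07, 1.89, 1.37 and 0.886, beside 1.40.

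Among genes of the translation machinery, the sites of Rpl18 and Rpl26 had 6 wild-type tags each, with 3 and 2 knock-out and 2 and 2 input tags, 286 and 341 bp from the TSS. Those of Rpl13a and Rpl36 had 5 wild-type and 2 knock-out tags each, with 1 and 6 input tags. All 17 sites of cytosolic ribosomal protein genes lay in regions rich in both H3K4me3 and H3K27me3, beside 69.3% of all promoter sites. Together they held 61 tags each in the wild-type ChIP and the input and 23 in the knock-out ChIP. The 15 sites of mitochondrial ribosomal protein genes held 52 wild-type, 32 knock-out and 70 input tags. Of these, Mrpl21 had 5, 4 and 11 tags, Mrpl23 5, 1 and 2, Mrps27 5, 1 and 16 and Mrpl34 4, 7 and 6. For the respiratory chain, Atp5g2 had 8, 0 and 16 tags, Cox5a 7, 4 and 2, Sdha 5, 0 and 1 and Ndufa13 4, 4 and 13.

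Fibroblasts deposit collagens and other matrix proteins. The 9 sites before 8 collagen genes held 32 tags of the wild-type ChIP, on which they were called, and 1 knock-out tag. Their 8 input tags all lay at the site of Col12a1, 18 bp from its TSS. That site was singled out after its values were seen. Col11a1, Col20a1, Col25a1 and Col6a3 had 4 wild-type tags each, with 1, 0, 0 and 0 knock-out tags and no input tag. No knock-out tag lay at 8 of these 9 sites, beside 43.5% of all promoter sites, and with 9 sites nothing is read from the count. Inside H3K4me3-rich regions lay 5 of the 9, beside 86.1% of all promoter sites. Counted from outermost TSS alone, 3 of 41 collagen genes had a site. Among matrix glycoproteins, Cyr61 had 2 sites with 6, 1 and 7 and with 3, 1 and 0 tags, Thbs1 had 3, 2 and 4, and Vcan had 3, 0 and 1. Smad3, a signal transducer of TGF-beta, had 5 wild-type tags but 0 knock-out and 0 input tags, and Ltbp3 had 3, 3 and 0. The transcription factors Runx1, Prrx1, Foxc1 and Tbx15 had 5, 4, 4 and 4 wild-type tags, 0 or 1 knock-out tag and 0 or 1 input tag. Nfib was the only NFI gene with a promoter site, 874 bp upstream on chromosome 4, 82352520 to 82352535, with 4, 0 and 0 tags.

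Odorant and pheromone receptors are genes of sensory neurons. The 10 olfactory receptor sites together held 28 wild-type tags, with 3 from the knock-out ChIP and 4 from the input, and lay outside H3K4me3-rich regions without exception, whereas 86.1% of all promoter sites lay inside. Olfr671 had 5, 1 and 1 tags and Olfr259 4, 1 and 1. The 3 vomeronasal receptor sites, of Vmn2r107, Vmn2r95 and Vmn1r70, held 4, 4 and 3 wild-type tags, no knock-out tag and 0, 0 and 1 input tags. Of the Hox genes, Hoxa7 had 4, 0 and 5 and Hoxa11 2, 1 and 0 tags, and of the keratins Krt80 and Krt19 had sites.

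The intervals of the remaining lists held the share of all genes, and the highest of their shares was 16.4%, for splicing factors. Counted from outermost TSS alone, general transcription factors stood at 14.3% (5.94 to 27.2), above the 5.90% of all genes. Splicing factors had sites at 11 of 67 genes. In the order wild-type, knock-out and input, Prpf38b had 5, 2 and 10 tags and Snrpd3 5, 1 and 1. A site of Sfrs18 had 5, 0 and 1 and that of Hnrnpa0 4, 1 and 2. Of the DNA replication genes 6 of 46 had sites, among them Orc5, Orc2 and Orc1 of the origin recognition complex. Orc1 held 5 tags in the knock-out against 3 in the wild-type ChIP and 0 in the input. Zinc finger genes of the Zfp series had sites at 40 of 362, chaperones at 8 of 82, RAB GTPases at 7 of 53, cyclins and their kinases at 7 of 48, DNA repair at 5 of 59, core and linker histones at 4 of 79 and proteasome subunits at 3 of 49. The general transcription factors had sites at 8 of 49 genes, aminoacyl-tRNA synthetases at 6 of 37, histone methyltransferases and demethylases at 6 of 56, mesenchymal transcription factors at 6 of 39, integrins and laminins at 4 of 42, TGF-beta and BMP signalling at 3 of 42, matrix glycoproteins at 3 of 31, keratins at 2 of 51 and Hox genes at 2 of 40. The name patterns also caught a few genes of other function, such as Itgb3bp, a centromere protein, among the integrins, and Cdkn2aipnl among the cyclins.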

How the data were processed

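The 3 libraries were sequenced as 35 or 36 bp reads. The authors mapped the reads with ELAND to NCBI build 37 (mm9), and each deposited file gives every read with its position, strand and mismatches as whole-number positions, with no count, signal or normalization. The site list was made by the authors with ChIP-Peak (window of 300 bp, vicinity range of 300 bp, threshold of 5 tags, shift of 75 bp, repeat filter), and the files of boundaries give the regions rich in each histone mark, found with ChIP-PART. The lamina domains had been lifted over from human fibroblasts. The deposited list was called on the wild-type ChIP alone.

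Uniquely mapped reads with at most 2 mismatches on chromosomes 1 to 19, X and Y were reduced to 1 tag per position and strand and counted by their 5′ end in 300 bp centred on each site. ELAND placed the initial 32 bases only, so the 5′ end of reverse reads was set from these, which at least 98.4% of the checked reads without mismatch matched. TSS were those of all transcripts of protein-coding genes in GENCODE vM1. Promoter windows without a site were windows of 300 bp at fixed steps within the upstream kilobase, at least 300 bp from any listed site and from each other. Intervals are exact binomial for shares, Poisson for counts, conditional binomial for ratios and from a normal approximation of the log for ratios of ratios. PCR copies are not independent molecules, and 34.3%, 29.0% and 75.8% of the unique reads remained after reduction.

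Sites under 5 input tags were named by rank, the 15 highest in wild-type and the 10 highest in knock-out tags (ties by fewer input tags, then by position). Also named were 10 divergent sites chosen likewise, all palindromes with at most 1 mismatch, the 3 sites with most input tags, and the members of each list (all up to 5, otherwise the 4 with most wild-type tags). Members and lists were chosen with earlier results of these data known. Genes with 3 or more sites and the genes named for the name patterns were chosen after their values were seen. A few genes that these rules select are not reported here. Counting was tested on simulated tags of known ratio. Files on microRNAs were not used here. Calculations were run in Python 3.11.15 with pysam 0.24.0, NumPy 2.4.6, pandas 2.3.3 and SciPy 1.17.1, and plots were drawn with matplotlib 3.10.9. Alternatives covered the reduction of tags, mismatches, shift, window, upstream distance, choice of TSS, GC content, motif and region definition.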

Additional observations from a re-analysis of the deposited data

How the results depend on the processing

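No paired analysis was possible because each condition had 1 library. For the same reason no replicate could be left out, and the low tag counts limit single sites to counting error of a few tags. Knock-out over input at promoter sites, 0.561, was 0.494 with every unique tag counted, 0.520 without mismatched tags, 0.595 with a shift of 75 bp, 0.514 with 600 bp, 0.525 with both of these, a setting chosen after the data were seen, 0.778 without sites of 10 or more knock-out and input tags, 0.492 and 0.644 within 500 and 2000 bp, and 0.532 with outermost TSS. It reversed below 50% G and C, to 1.53 and 1.20, and was 0.779 and 0.259 in the upper ranges. Relative to other sites, 0.458, it was 0.833 with every tag, 0.419 without mismatched tags, 0.434 with 600 bp, 0.571 without the sites of many tags, 0.405 and 0.525 within 500 and 2000 bp, and, by rising GC, 1.16, 0.800, 0.577 and 1.14. Without the other site with the most input tags in each range, also chosen after the data were seen, these were 1.16, 0.797, 0.576 and 1.06. The outer values lie above 1, but their intervals without that site include 1. The GC ranges themselves are the construction of these settings, and the cause of the other shifts was not tested.

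The wild-type level was 7.18 with every tag, 7.93 without mismatched tags, 8.92 with the shift, 7.08 and 7.86 with 600 and 150 bp, 7.95 with 600 bp and shift, and 8.01 under 40% G and C. The knock-out level was 2.61, 3.01, 2.94 and 3.02 with every tag, without mismatches, with 600 bp and with 600 bp and shift, 2.66 without the sites of many tags, 3.53, 3.03 and 3.32 within 500 bp, within 2000 bp and with outermost TSS, and 1.96, 2.72, 3.40 and 4.28 by rising GC. The input level was 5.28 with every tag, 3.42 without the sites of many tags, 7.18, 4.70, 6.24 and 6.11 within 500 bp, within 2000 bp, with outermost TSS and with TSS of coding transcripts, and 1.28, 2.27, 4.37 and 16.5 by rising GC.

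The number of sites was 1286 within 500 bp and 1236 with outermost TSS, before 1263 genes, and the divergent share was then 2.67%. Without the sites of many tags, the median distance of those that remained was 375 bp. H3K4me3-rich regions then held 84.4% of the sites, and 87.6% and 81.7% within 500 and 2000 bp. They held 92.0% with outermost TSS and 89.1% with TSS of coding transcripts, and H3K27me3-rich regions held 83.3% and 80.2% with the latter 2. The palindrome share was 0.510% with at most 1 mismatch. All other settings kept the numbers of sites and genes within 1.5 times and other values within their counting interval, apart from the shares of collagens, cytosolic ribosomal proteins and olfactory receptors under 1 setting each.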
